A study of Mus musculus with 6 samples.

Results

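A group of 10 genes around coenzyme Q (CoQ) was described in 4T1 GPD2 KO cells and 4T1 WT cells. They were chosen by name: 7 act in CoQ synthesis (Pdss1, Pdss2, Coq2, Coq3, Coq7, Coq9 and Coq8a) and 3 encode dehydrogenases that hand electrons to CoQ (Sqor, Etfdh and Dhodh). All 10 were among the 12534 genes of the table and among the 12106 genes tested. Sqor is entered there under its older symbol Sqrdl and Coq8a under Adck3. 4T1 is a mammary carcinoma line from a BALB/c mouse. RNA was sequenced from 3 GPD2 KO samples and 3 WT samples. All KO samples came from 1 clone, made by transient transfection with a guide RNA and Cas9 vector and puromycin selection, so an effect of the deletion cannot be told apart from a property of that clone. The labels name the same vector in the treatment field of the WT samples, and whether WT cells received it is not known. The paper states in general that, unless noted, its data come from 3 biologically independent samples. Neither that statement nor the labels say that the 3 RNA samples of a genotype were separate cultures. The p-values thus measure the spread between these samples, which may be technical.

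CoQ is a lipid of the inner mitochondrial membrane that takes electrons from several dehydrogenases and passes them to complex III. Its isoprenoid tail is built from mevalonate pathway products, joined to a benzene ring, and the ring is then modified step by step by a protein assembly on the matrix side of the membrane. GPD2, the mitochondrial glycerol-3-phosphate dehydrogenase, is itself one of the enzymes that reduce CoQ, so it feeds the same electron pool as Sqor, Etfdh and Dhodh. The other genes described here act in the synthesis of CoQ.

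The libraries held 51186527 to 55645413 counts in KO cells and 53464439 to 59846170 counts in WT cells. Gpd2 was checked first. It stood at 9.90, 9.95 and 9.88 TPM in the KO libraries, against 51.6, 52.1 and 52.0 TPM in the WT libraries, with a log2 fold change of -2.39 (SE 0.0375, adjusted p = 5.61e-19, edgeR quasi-likelihood test). TPM is a level scaled for transcript length and for the total of the library. Differences between the genotypes were wide across the transcriptome: 33.9% of the tested genes were higher and 33.7% lower in KO cells at an adjusted p of 0.05, together 67.6%, and 70.7% of genes had TPM that did not overlap between the 3 KO and the 3 WT libraries. Of 10 epithelial marker genes, Krt8, Krt18 and Krt7 were in the table, and all 3 were lower in KO cells. Their summed level was 987 to 1034 TPM in KO cells and 1709 to 1804 TPM in WT cells. The other epithelial markers, Epcam and Cdh1 among them, were not in the table. Of 10 leukocyte and macrophage markers, the 6 in the table summed to 42.7 to 46.2 TPM in KO cells and 54.4 to 56.9 TPM in WT cells, with 1 higher, 4 lower and 1 not past the test. Of 9 fibroblast and endothelial markers, the 4 in the table summed to 21.4 to 25.6 TPM in KO cells and 51.4 to 52.5 TPM in WT cells, with 1 higher and 3 lower. A gene with no count in a library was not in the table, so no marker at 0 could be seen. The part of these markers in the results for the CoQ genes was not tested. The samples came from a cultured line and, for KO cells, from a clone that the paper grew from 1 cell. Cd68 and Cd14 carried most of the leukocyte and macrophage sum in WT cells, with means of 23.1 and 30.1 TPM. Pdgfra carried most of the fibroblast and endothelial sum in WT cells, with a mean of 36.1 TPM. Ptprc, Adgre1, Csf1r and Cd3e had no entry. Whether the 4T1 cells themselves express these markers was not tested. In bulk RNA, fewer cells of a kind and less RNA per cell cannot be told apart.

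Of the 10 genes, 4 were higher in KO cells (Pdss1, Pdss2, Coq3 and Coq7), 5 were lower (Coq2, Coq9, Coq8a, Sqor and Etfdh) and Dhodh did not pass the test. That is 9 of 10 called, beside the 67.6% of all tested genes. Their TPM did not overlap between KO and WT libraries for 9 of the 10, beside 70.7% of all genes. The median log2 fold change of the 10 was -0.11, against 0.00 over all tested genes, and the median size of the change regardless of sign was 0.37, against 0.29. The changes were mostly modest. With a fold of at least 1.5 added to the adjusted p, 3 of the 10 remained (Coq8a, Sqor and Coq3), where 19.6% of all genes did. The study's own criterion, edgeR's exact test with an unadjusted p of 0.05 and a 2-fold difference, was met by 2 (Coq8a and Sqor), where 8.64% of all genes met it.

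**Figure D1:**
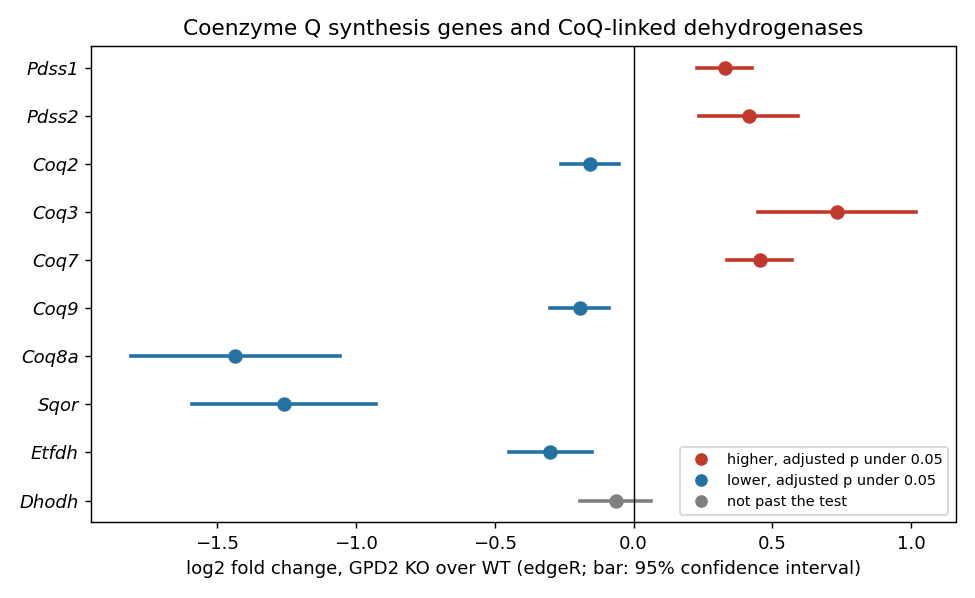
Log2 fold change of each of the 10 genes, GPD2 KO over WT, from edgeR (x axis, log2 scale), with a 95% confidence interval computed from the edgeR test as a bar. Coq8a and Sqor sit farthest from 0, at -1.43 and -1.26, Coq3 is the farthest on the higher side at 0.73, and the interval of Dhodh includes 0.

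The 2 subunits of the tail-making enzyme moved in the same direction and by a like amount. Pdss1 and Pdss2 together form the polyprenyl diphosphate synthase that strings isoprene units into the CoQ tail. Pdss1 (chr2:22894382-22940266, plus strand, mm10) stood at 52.3, 50.6 and 52.2 TPM in KO cells, against 40.8, 41.5 and 41.4 TPM in WT cells. Every KO library lay above every WT library, the libraries of each genotype were close together, and the log2 fold change was 0.33 (SE 0.0474, adjusted p = 8.02e-06, edgeR). Pdss2 (chr10:43218248-43464882, plus strand) stood at 17.1, 15.4 and 14.2 TPM in KO cells, against 11.8, 11.0 and 12.3 TPM in WT cells. The groups again did not overlap, though the KO libraries were more spread (SD 1.46 TPM, against 0.653 TPM in WT cells), and the log2 fold change was 0.41 (SE 0.0848, adjusted p = 0.000313, edgeR). The ratio of Pdss1 to Pdss2 TPM was 3.34 ± 0.311 in KO cells and 3.54 ± 0.210 in WT cells (SD, n = 3 each), and its ranges overlapped. Pdss1 shares 194 bases of exon with Abi1 and 207 with the pseudogene A130006I12Rik, both on the opposite strand. The sources used here do not say whether counting used the strand, so some reads could be shared. Pdss2 shares 33 bases of exon with Gm47856 on the same strand. Abi1 had a log2 fold change of 0.28 that did not pass the test (adjusted p = 0.370, edgeR). It stood at 84.6, 83.9 and 85.3 TPM in KO cells, against 78.8, 48.1 and 82.4 TPM in WT cells. The part of shared reads in the Pdss1 and Pdss2 values was not tested.

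Coq2, the prenyltransferase that joins the tail to 4-hydroxybenzoate, went the other way and only slightly. Coq2 (chr5:100654723-100674288, minus strand) stood at 34.0, 35.5 and 35.0 TPM in KO cells, against 37.8, 39.1 and 39.9 TPM in WT cells. The groups did not overlap, but the gap was narrow, and the log2 fold change was -0.16 (SE 0.0497, adjusted p = 0.00954, edgeR), so the level fell by 10.3%. Without KO replicate 1 the value was -0.14 and the adjusted p 0.0526 (edgeR), so the call was lost. Without WT replicate 3 the value was also -0.14, with an adjusted p of 0.0448 (edgeR). Leaving out any 1 library gave values from -0.18 to -0.14, so the call is near the threshold.

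Among the genes that act on the ring, Coq3 and Coq7 were higher in KO cells and Coq9 was lower. Coq3 is the O-methyltransferase of the pathway, Coq7 the hydroxylase that acts just before the last methylation, and Coq9 a lipid-binding protein that associates with Coq7 and is needed for its function. Coq3 (chr4:21879646-21912163, plus strand) stood at 4.81, 4.97 and 5.17 TPM in KO cells, against 3.6, 3.07 and 2.32 TPM in WT cells. The KO libraries were close together and the WT libraries spread (SD 0.181 TPM in KO cells and 0.643 TPM in WT cells), with WT replicate 3 the lowest. Its log2 fold change was 0.73 (95% interval 0.45 to 1.02, adjusted p = 0.000119, edgeR), a fold of 1.66, and it was 0.58 without WT replicate 3 and 0.89 without WT replicate 1.

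Coq7 (chr7:118509659-118533356, minus strand) had the highest level of the 10 genes in both genotypes. It stood at 103, 93.0 and 96.3 TPM in KO cells, against 75.0, 71.9 and 66.1 TPM in WT cells. No KO library came near the WT range, and the log2 fold change was 0.46 (95% interval 0.34 to 0.57, adjusted p = 1.11e-06, edgeR), a fold of 1.37. Coq9 (chr8:94838413-94854895, plus strand) stood at 37.9, 38.3 and 36.7 TPM in KO cells, against 44.0, 43.9 and 41.5 TPM in WT cells. Here every KO library lay below every WT library, with a log2 fold change of -0.19 (SE 0.0498, adjusted p = 0.00220, edgeR). The ratio of Coq7 to Coq9 TPM was 2.71, 2.43 and 2.62 in KO cells, against 1.70, 1.64 and 1.6 in WT cells. The ratios did not overlap. A permutation test of 3 against 3 libraries cannot go below a two-sided p of 0.10, so none is given for the ratios. Coq9 shares 38 bases of exon with Ciapin1 on the opposite strand, which had a log2 fold change of -0.12 (adjusted p = 0.0489, edgeR). The part of shared reads in the Coq9 values was not tested.

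Coq8a was the lowest of the 10 genes in both genotypes and had the widest fold difference. It encodes an atypical kinase-like ATPase that supports the assembly of ring-modifying enzymes, and Coq8b is its close paralog. Coq8a (chr1:180165238-180196020, minus strand) had 56, 55 and 70 counts in KO cells, against 145, 179 and 190 counts in WT cells. These counts are low beside a median of 1757 counts per gene in the table, but the groups stood well apart. Its level was 0.595, 0.539 and 0.668 TPM in KO cells, against 1.39, 1.61 and 1.90 TPM in WT cells, with a log2 fold change of -1.43 (95% interval -1.81 to -1.06, adjusted p = 1.39e-06, edgeR). The WT level was 2.70 times the KO level. On the log2(TPM + 1) scale, which compresses such low levels, the difference was -0.71 (adjusted p = 0.000672, limma).

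Coq8b, a gene singled out after its values were seen, was the more abundant paralog and moved the other way: 10.8, 11.1 and 12.3 TPM in KO cells, against 8.93, 7.52 and 9.19 TPM in WT cells (log2 fold change 0.42, SE 0.0929, adjusted p = 0.000718, edgeR). The ratio of Coq8b to Coq8a TPM was 18.1, 20.5 and 18.4 in KO cells, against 6.40, 4.68 and 4.85 in WT cells. The summed level of the paralogs was thus carried mainly by Coq8b in both genotypes. Coq8a shares 366 bases of exon with Cdc42bpa on the opposite strand. Cdc42bpa stood at 26.4, 24.8 and 25.7 TPM in KO cells and 26.1, 26.2 and 24.3 TPM in WT cells, a log2 fold change of 0.01 (adjusted p = 0.833, edgeR). The part of shared reads in the Coq8a values was not tested.

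**Figure D2:**
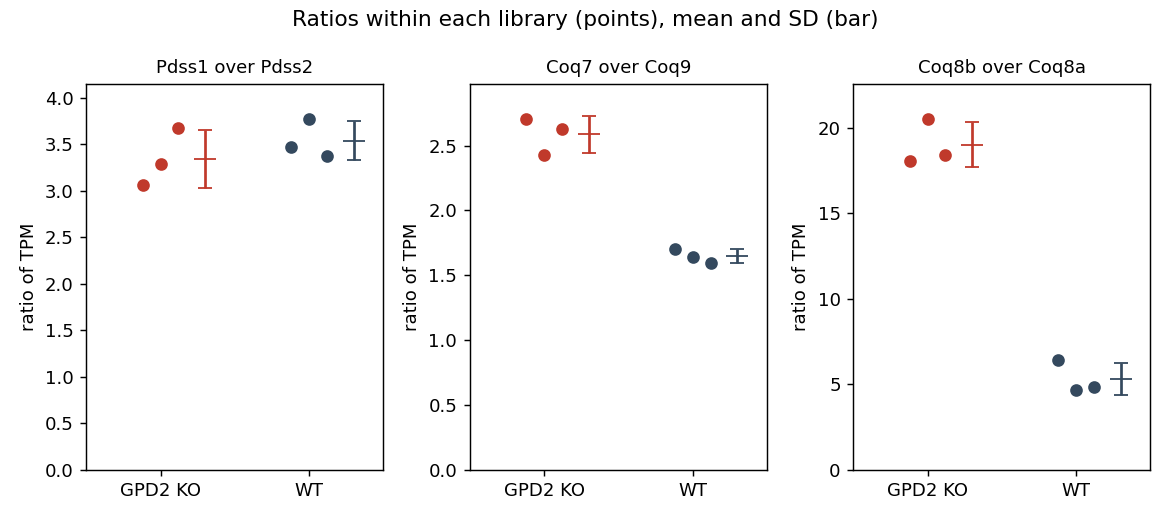
Ratio of TPM within each library for 3 pairs of genes (y axis, no unit, from 0), with GPD2 KO left of WT. Points are libraries, and the bar beside them is the mean and SD of 3 libraries. The Pdss1 to Pdss2 ratios overlap, at means of 3.34 in KO cells and 3.54 in WT cells, and the Coq7 to Coq9 and Coq8b to Coq8a ratios are higher in every KO library than in any WT library.

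The promoters of Coq8a, Coq7 and Etfdh are shown because they belong to the lowest and the highest of the genes, which moved in opposite directions, and to a dehydrogenase that was lower in KO cells. They are RefSeq sequences of GRCm38.p6, from 250 bases before to 50 bases after an annotated start, read 5′ to 3′ along the gene, with motif matches in capitals: the CCAAT box (CCAAT, or ATTGG on the other strand) and the NRF1 motif (GCGCANGCG, or its reverse complement). NRF1 is a transcription factor known for nuclear genes of the respiratory chain.
Coq8a (chr1:180195971-180196270, minus strand): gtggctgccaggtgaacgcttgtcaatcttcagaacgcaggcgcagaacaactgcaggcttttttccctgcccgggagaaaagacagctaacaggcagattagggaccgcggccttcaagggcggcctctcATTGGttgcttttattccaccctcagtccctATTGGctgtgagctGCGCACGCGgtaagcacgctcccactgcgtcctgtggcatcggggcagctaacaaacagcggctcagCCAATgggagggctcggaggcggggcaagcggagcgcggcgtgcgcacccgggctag
Coq7 (chr7:118533307-118533606, minus strand): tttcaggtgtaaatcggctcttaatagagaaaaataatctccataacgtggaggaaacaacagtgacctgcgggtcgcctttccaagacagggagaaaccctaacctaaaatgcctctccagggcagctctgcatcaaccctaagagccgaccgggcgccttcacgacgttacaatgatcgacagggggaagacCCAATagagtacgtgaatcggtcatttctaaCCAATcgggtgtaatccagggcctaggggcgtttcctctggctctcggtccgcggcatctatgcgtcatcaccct
Etfdh (chr3:79628718-79629017, minus strand): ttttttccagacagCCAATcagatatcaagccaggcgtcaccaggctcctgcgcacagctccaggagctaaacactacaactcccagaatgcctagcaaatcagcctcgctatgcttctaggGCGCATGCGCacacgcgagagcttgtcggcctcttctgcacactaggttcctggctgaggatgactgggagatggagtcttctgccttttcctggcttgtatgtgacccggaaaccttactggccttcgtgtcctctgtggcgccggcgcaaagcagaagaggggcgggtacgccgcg

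The Coq7 window held 2 CCAAT boxes, which begin 56 and 25 bases before the start, and no NRF1 match. The Coq8a window held an NRF1 match that begins 74 bases before the start and 3 CCAAT boxes, and the other RefSeq window of Coq8a (chr1:180193436-180193735), not printed here, held none of the motifs searched. The Etfdh window held overlapping NRF1 matches on both strands, 128 and 127 bases before the start, and 1 CCAAT box. RefSeq gave 11 such windows for 9 of the 10 genes. For the windows of Coq3 and Sqor, the bases after the start were found in no GENCODE transcript of the gene, so whether these windows are promoters in use is not known. An NRF1 match was in 3 of the 11 (Coq3, Coq8a and Etfdh), against 6.25% of all 32851 windows of this length, and a CCAAT box in 4 (Coq7, Coq8a, Etfdh and Sqor), against 37.4%. The 3 windows with an NRF1 match had a G and C content of 66.7%, 61.7% and 57.3%, against a median of 52.7% over all windows. No comparison with windows of like content was made. The antioxidant response element (TGACNNNGC) was in 1, that of Coq9, against 12.4% of all windows. None held the ATF4-CHOP element (TGATGNAAT, 0.965% of all windows), the ERR element (TNAAGGTCA, 1.28%) or the sterol element (TCACNCCAC, 1.24%). These are matches of letters, not sites of binding.

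Of the dehydrogenases, Sqor changed most. It oxidizes hydrogen sulfide in mitochondria and passes the electrons to CoQ. Sqor (chr2:122765327-122809553, plus strand) had 89, 108 and 87 counts in KO cells, against 252, 213 and 248 counts in WT cells, which is 2.27, 2.46 and 2.02 TPM in KO cells and 5.82, 4.63 and 6.0 TPM in WT cells. The highest KO library lay far below the lowest WT library, WT replicate 2. The log2 fold change was -1.26 (95% interval -1.59 to -0.93, adjusted p = 1.42e-06, edgeR), a WT level 2.39 times the KO level, and it stayed between -1.38 and -1.18 when any 1 library was left out.

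Etfdh and Dhodh showed a small decrease and no detected difference. Etfdh is the oxidoreductase that takes electrons from the electron transfer flavoprotein, the collector for fatty acid and amino acid oxidation, and gives them to CoQ. Etfdh (chr3:79603788-79628767, minus strand) stood at 12.4, 11.0 and 11.9 TPM in KO cells, against 14.3, 14.8 and 14.4 TPM in WT cells. The groups did not overlap and the log2 fold change was -0.30 (SE 0.0707, adjusted p = 0.00111, edgeR). The level fell by 18.8%. Etfdh shares 278 bases of exon with 4930579G24Rik on the opposite strand, whose log2 fold change was -0.23 (adjusted p = 0.00978, edgeR). The part of shared reads in the Etfdh values was not tested. Dhodh, which oxidizes dihydroorotate in pyrimidine synthesis (chr8:109593244-109608699, minus strand), stood at 19.3, 20.6 and 19.0 TPM in KO cells and 20.3, 20.3 and 21.1 TPM in WT cells. The groups overlapped. Its log2 fold change was -0.06 with a 95% interval of -0.19 to 0.06 (adjusted p = 0.361, edgeR), which spans -12.5% to 4.52% on the linear scale.

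**Figure D3:**
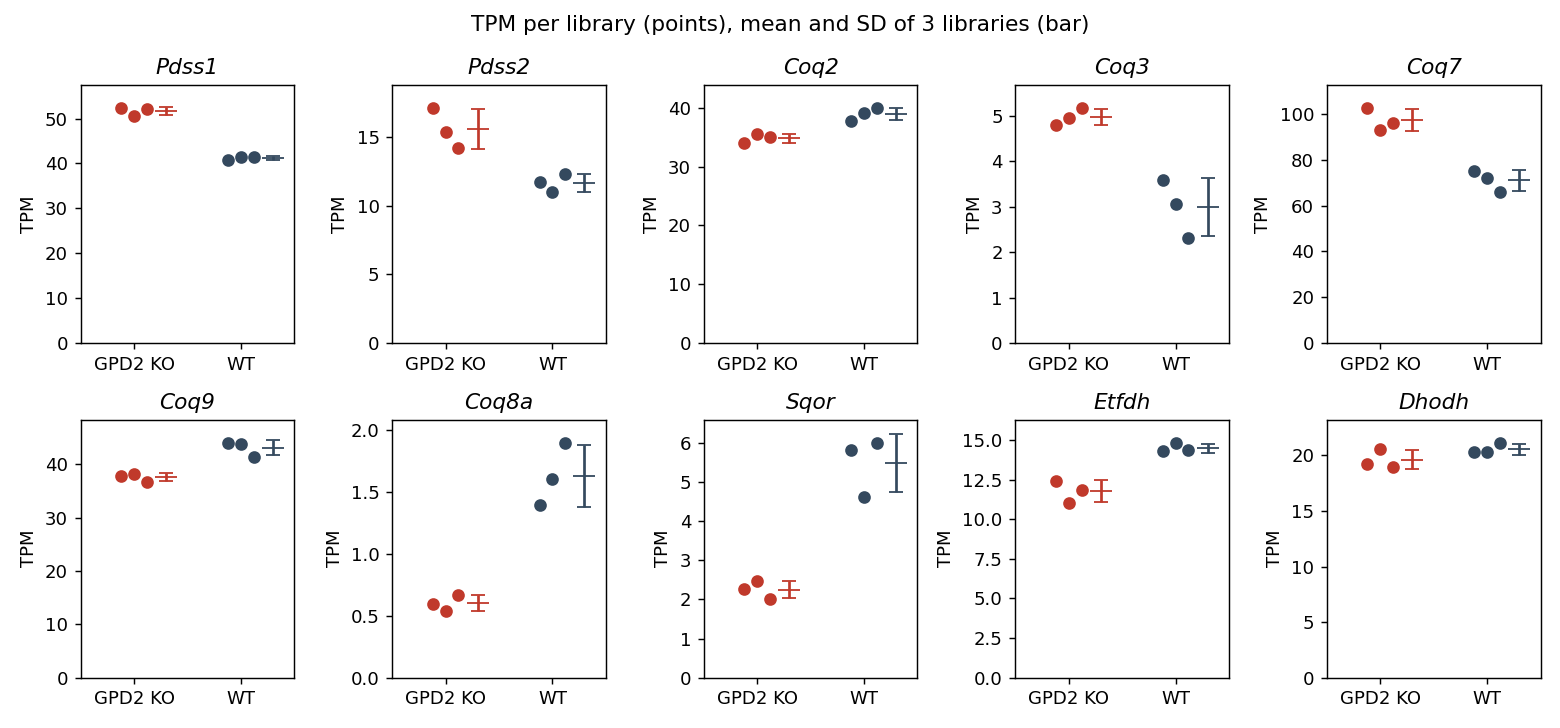
TPM of each of the 10 genes per library (y axis, linear from 0, own scale for each gene), with GPD2 KO left of WT. Points are libraries in the order of their replicate numbers, and the bar is the mean and SD of 3 libraries. Only Dhodh has overlapping points; the mean TPM of the 10 genes span 0.601 to 97.3 in KO cells and 1.63 to 71.0 in WT cells.

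The order of levels changed in places between the genotypes. By mean TPM the order in KO cells was Coq7, Pdss1, Coq9, Coq2, Dhodh, Pdss2, Etfdh, Coq3, Sqor and Coq8a, and no neighbours in it overlapped in range. In WT cells it was Coq7, Coq9, Pdss1, Coq2, Dhodh, Etfdh, Pdss2, Sqor, Coq3 and Coq8a, with only Coq9 and Pdss1 overlapping. Thus Pdss1 stood above Coq9, Pdss2 above Etfdh and Coq3 above Sqor in KO cells, each pair being in the other order in WT cells. Among all genes of the table Coq7 was at the 84.1st percentile of mean TPM in KO cells and the 78.8th in WT cells, and Coq8a at the 8.12th in KO cells and the 13.0th in WT cells. The summed level of the 10 genes was 272 to 283 TPM in KO cells and 247 to 255 TPM in WT cells, ranges that did not overlap, and Coq7 made up the largest part of each.

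Most of the other genes of CoQ synthesis and handling were higher in KO cells. Of 12 listed and tested, 8 were higher, 1 was lower and 3 missed the threshold, beside 33.9% higher and 33.7% lower over all tested genes. Called in either direction were 9 of 12, beside 67.6%. They had a median log2 fold change of 0.42, against 0.00 over all tested genes. Coq4, a matrix protein needed for the synthetic assembly, averaged 19.96 ± 1.26 TPM in KO cells and 10.7 ± 0.594 TPM in WT cells (SD, n = 3 each; log2 fold change 0.90, adjusted p = 2.81e-09, edgeR). Coq5, the C-methyltransferase, had a log2 fold change of 0.45, Coq10b, a lipid-binding protein that keeps CoQ functional in respiration, 0.57, and Pptc7, a mitochondrial phosphatase linked to CoQ synthesis, 0.43, all past the test. The gene that fell was Fdxr, the ferredoxin reductase at the head of the electron chain that serves Coq6, at 14.4 ± 0.178 TPM in KO cells and 23.9 ± 1.73 TPM in WT cells (SD, n = 3 each; log2 fold change -0.72, adjusted p = 5.79e-08, edgeR). Fdx2, a mitochondrial ferredoxin that takes electrons from it, was higher, with a log2 fold change of 0.45 (adjusted p = 2.46e-07, edgeR).

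Most of the mevalonate pathway genes that supply the substrates of Pdss1 and Pdss2 were higher in KO cells. Of 9, 7 were higher, none was lower and 2 missed the threshold (33.9% higher and 33.7% lower over all tested genes), with a median log2 fold change of 1.04. Fdps, which makes the farnesyl diphosphate that starts the tail, averaged 176 ± 9.35 TPM in KO cells and 86.4 ± 2.03 TPM in WT cells (SD, n = 3 each; log2 fold change 1.04, adjusted p = 4.55e-13, edgeR). Hmgcs1, Idi1, Mvd and Acat2 were also higher, with log2 fold changes of 1.39, 1.22, 1.17 and 0.84. These enzymes feed cholesterol synthesis as well as CoQ.

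Most of the genes listed as electron donors upstream of Etfdh were lower in KO cells, as Etfdh was. Of 15 tested, 10 were lower, 1 was higher and 4 missed the threshold, with a median log2 fold change of -0.26. The 15 include Etfrf1, which is a regulator and not a donor. Over all tested genes 33.7% were lower and 67.6% were called in either direction, against 11 of these 15. Acadvl, the very-long-chain acyl-CoA dehydrogenase, averaged 44.4 ± 1.80 TPM in KO cells and 73.9 ± 2.93 TPM in WT cells (SD, n = 3 each; log2 fold change -0.73, adjusted p = 4.38e-10, edgeR). Gcdh, the glutaryl-CoA dehydrogenase of lysine breakdown, had a log2 fold change of -0.58, and Acadl, the long-chain acyl-CoA dehydrogenase, -0.29. D2hgdh, which oxidizes D-2-hydroxyglutarate, fell by 0.81 on the log2 scale, and Etfrf1, a regulator of the flavoprotein, and Acad10 fell by 0.90 and 1.12. The subunits of the flavoprotein itself, named after their values were seen, differed little: Etfb was the 1 gene that was higher, with a log2 fold change of 0.12 (adjusted p = 0.0320, edgeR), and Etfa had -0.14, just outside the threshold.

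The sulfide genes around Sqor moved in both directions. Of 7 tested, 4 were higher in KO cells, with 2 lower and 1 not past the test (33.9% higher and 33.7% lower over all tested genes), and the median log2 fold change was 0.46. Suox, the sulfite oxidase, averaged 15.9 ± 0.348 TPM in KO cells and 9.14 ± 1.17 TPM in WT cells (SD, n = 3 each; log2 fold change 0.80, adjusted p = 2.14e-07, edgeR). Tst, a thiosulfate sulfurtransferase, Cth, which can release sulfide from cysteine, and Ethe1, the persulfide dioxygenase next after Sqor, had log2 fold changes of 0.65, 0.46 and 0.19. Tstd3 fell by 0.97 on the log2 scale and Mpst, a sulfurtransferase that also yields sulfide, by 0.17. Around Dhodh, 5 of 7 pyrimidine enzymes were higher, none was lower and 2 missed the threshold, with a median log2 fold change of 0.23. The share called, 5 of 7, was near the 67.6% of all tested genes, of which 33.9% were higher. Cad, the enzyme just before Dhodh in the pathway, had 0.24, Umps, the enzyme just after it, 0.28, and Ctps, which makes CTP, 0.53. Cmpk1 and Uck2, pyrimidine nucleotide and nucleoside kinases, had 0.23 and 0.17.

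Other enzymes that use CoQ moved in both directions. Of 8 other CoQ-linked dehydrogenase genes tested, Gpd2 among them, 2 were higher in KO cells, with 4 lower and 2 not past the test, and the median log2 fold change was -0.07. The share called, 6 of 8, was near the 67.6% of all tested genes. Within complex II, the succinate dehydrogenase, Sdhd had a log2 fold change of 0.35 and Sdhc of -0.19, while its other 2 subunits did not pass the test. Prodh, the proline dehydrogenase, had -0.14. Chdh, the choline dehydrogenase, was nearly silent, with 9, 3 and 22 counts in KO cells and 46, 32 and 45 counts in WT cells, and a log2 fold change of -1.78 (adjusted p = 0.00250, edgeR). The 3 CoQ reductases outside the respiratory chain each passed the test, as did 67.6% of all tested genes. Nqo1 was higher, at 280 ± 22.2 TPM in KO cells and 203 ± 2.88 TPM in WT cells (SD, n = 3 each; log2 fold change 0.46, adjusted p = 1.49e-07, edgeR). Aifm2, which reduces CoQ at the plasma membrane and protects against lipid peroxidation, fell by 0.54 on the log2 scale, and Nqo2 by 0.48.

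Complex III, which takes the electrons from reduced CoQ, showed 4 of 9 subunit genes higher, 1 lower and 4 not past the test, with a median log2 fold change of 0.09. Called in either direction were 5 of 9, beside 67.6% of all tested genes. The count depended on the method: it was 6 with DESeq2 and with limma-voom, and 4 with no filter on low counts. Uqcrc1 and Uqcrc2, the core subunits, had log2 fold changes of 0.47 and 0.30, and Cyc1, cytochrome c1, 0.36. The other calls were small, with 0.11 for Uqcr11 and -0.12 for Uqcrb. Without KO replicate 1 only 3 of the 9 subunit genes passed the test.

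**Figure D4:**
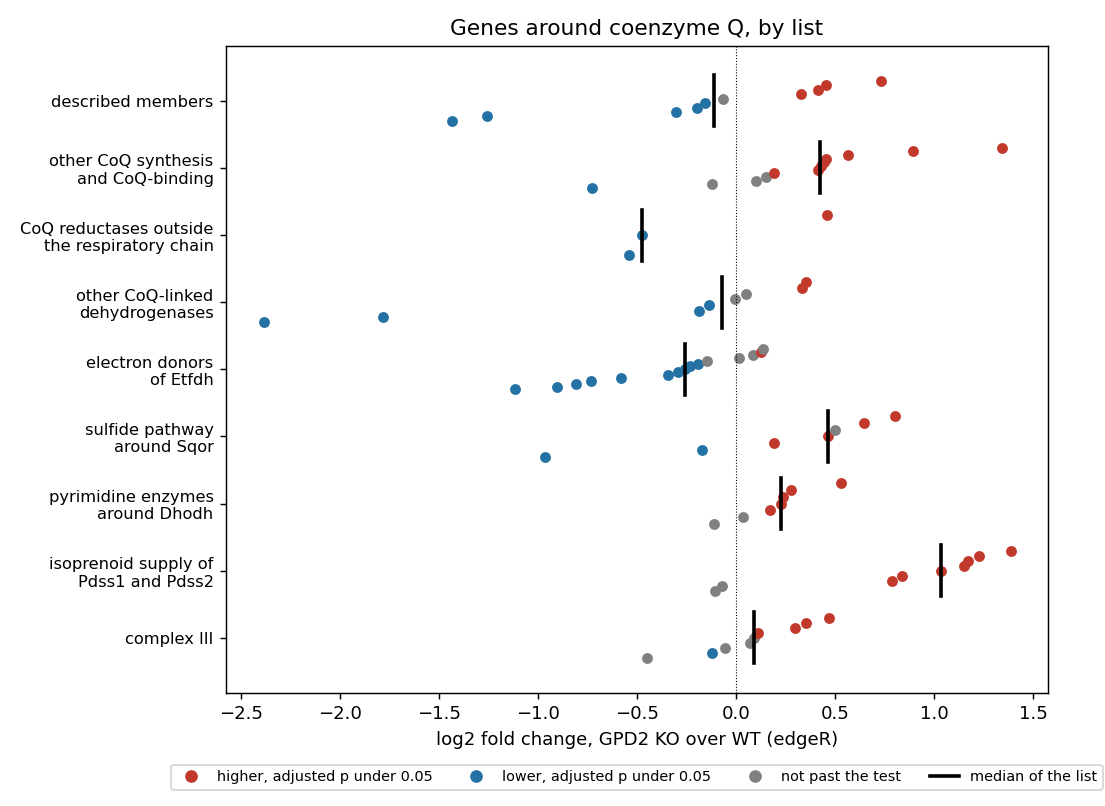
Log2 fold change, GPD2 KO over WT, from edgeR (x axis, log2 scale) of every tested gene in the 10 described genes and in 8 lists around them (rows), with the median of each list as a vertical line. The 10 described genes lie on both sides of 0 with a median of -0.11, and the mevalonate genes lie mostly near or above 1. The genes listed as donors of Etfdh, with the regulator Etfrf1 among them, lie mostly below 0.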

How the data were processed

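RNA of 3 GPD2 KO and 3 WT samples of 4T1 cells was sequenced as stranded poly(A) libraries. The authors used Trimmomatic 0.38 for trimming, HISAT2 2.1.0 for alignment (mm10) and StringTie 1.3.4d for quantification. The deposited table holds read counts per gene that the authors did not normalize, with at least 1 count in every library for each gene, and TPM computed by the authors. Columns of the authors' own comparison (fold changes and p-values), FPKM and log2 values were not used. The tests were run with edgeR 4.0.16 under R 4.3.3 (TMM normalization, filterByExpr with a minimum count of 10, robust quasi-likelihood test, Benjamini-Hochberg threshold 0.05 over 12106 genes). Each SE was computed as the size of the log2 fold change divided by the square root of the F statistic of the edgeR test. The 95% intervals were computed from the SE and a t distribution. The workflow was tested on simulated data. Alternatives used limma 3.58.1, DESeq2 1.42.0 and edgeR's exact test. Groups came from the genotype labels. The genes and lists were chosen with earlier results of these data known. Named were the 10 genes, Gpd2, and from each other list up to 6 changed genes with the smallest adjusted p (all genes of a list with at most 4 tested). Some genes that this rule takes are not reported here. Exceptions named after values were seen are Coq8b, Etfa, Etfb and the genes overlapping the 10. Positions came from RefSeq (GRCm38, the assembly of mm10, all 10 matched by Entrez identifier) and exon overlaps from the GENCODE annotation.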

Additional observations from a re-analysis of the deposited data

How the results depend on the processing

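The 4 higher and 5 lower calls among the 10 genes, and the lack of a call for Dhodh, stayed with median-of-ratios size factors, DESeq2, limma-voom, limma on log2(TPM + 1) and log2(TPM + 0.1), no filter on low counts, and no robust dispersion (an alternative chosen after seeing the data). Over those settings 7636 to 8177 genes changed, against 8180. Requiring a fold of 1.5 left 2372 genes and 3 of the 10 (1 higher and 2 lower), and edgeR's exact test at an unadjusted p and a 2-fold difference left 1046 genes and 2 of the 10 (0 higher and 2 lower). Leaving out 1 library at a time gave 7596 to 7906 changed genes and 8 to 9 of the 10, with 4 to 4 higher and 4 to 5 lower, Coq2 being the gene lost. No value changed direction. Samples with the same replicate number did not visibly deviate together (correlations 0.055, 0.062 and -0.017). Samples with unlike numbers had correlations of -0.153 to 0.101. With 3 libraries per genotype, a weak pairing by number could be missed. With the replicate block 8116 genes changed and 9 of the 10, 4 higher and 5 lower. Low counts limit the precision for Coq8a and Sqor.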
